A study of Mus musculus with 24 samples.

Results

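The genes described here are a list of Paneth cell genes other than the alpha-defensins, with *Ang5* annotated in the deposited table as a pseudogene: *Lyz1*, *Lyz2*, *Ang4*, *Ang5*, *Mptx1*, *Mptx2*, *Itln1*, *Mmp7*, *Nupr1* and *Clps*. They were chosen by name, with earlier results of these data known, and are 10 of the 56691 genes listed in the count table. Any count at all was present for 34471 of those. The distal jejunum of 24 mice gave 1 RNA library per mouse, 3 for each of 8 groups. The groups were wild type males, wild type females, *Ptk6*-/- males and *Ptk6*-/- females, each untreated (control) or given 100 mM succinate in the drinking water for 7 days. *Ptk6*-/- mice carry a germline knockout, present in every tissue, of a tyrosine kinase gene, on a C57BL/6 background reached by backcrossing. The mice came from a single breeding colony and different litters and were 9 to 11 weeks old at the end. No library was made from sorted cells, so that in this tissue RNA fewer Paneth cells and less RNA per Paneth cell cannot be told apart.

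Paneth cells sit at the base of small intestinal crypts, next to the stem cells, and release granules of antimicrobial proteins into the crypt lumen. Besides alpha-defensins the granules hold lysozyme, which cuts bacterial cell walls, angiogenin 4, a ribonuclease family protein that kills bacteria, and lectins and pentraxins that bind microbial surfaces. Succinate in the drinking water activates tuft cells through the receptor SUCNR1, and the IL-25 they release starts a type 2 immune response whose cytokine IL-13 acts on the epithelium.

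Of the 10 genes, 9 were expressed in all 24 libraries. Levels between genes are compared here in FPKM, a deposited unit that scales fragments by exon length and by mapped fragments, as means ± SD over the 12 control libraries. *Lyz1*, the lysozyme of Paneth cells (ENSMUSG00000069515, chromosome 10, 117123702 to 117128773), had the highest FPKM, 3410 ± 1568, rank 18 among all genes. *Itln1*, a lectin for microbial sugars (ENSMUSG00000038209, chromosome 1, 171345690 to 171362862), followed with a FPKM of 1455 ± 685.5, rank 47. *Ang4* (ENSMUSG00000060615, chromosome 14, 52001335 to 52011047) had a FPKM of 379.5 ± 173.3 and *Mptx2*, a mucosal pentraxin (ENSMUSG00000079180, chromosome 1, 173101949 to 173105344), 318.3 ± 164.2. The spreads of these last genes overlapped.

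*Mmp7*, the metalloproteinase that cuts alpha-defensin precursors into active peptides (ENSMUSG00000018623, chromosome 9, 7692091 to 7699586), had a FPKM of 105.4 ± 50.68 in the controls. *Lyz2*, the lysozyme that macrophages also make (ENSMUSG00000069516, chromosome 10, 117113236 to 117118226), had a FPKM of 86.24 ± 41.09. *Clps*, colipase, which helps pancreatic lipase bind fat droplets (ENSMUSG00000024225, chromosome 17, 28777123 to 28779740), had a FPKM of 83.92 ± 45.79, and these 3 did not differ beyond their spread. *Nupr1*, a stress-induced chromatin protein (ENSMUSG00000030717, chromosome 7, 126222421 to 126230033), had a FPKM of 19.43 ± 7.441. *Mptx1*, the near copy of *Mptx2* (ENSMUSG00000026531, chromosome 1, 174158084 to 174160439), had a FPKM of only 2.621 ± 1.352, rank 7880. *Ang5* (ENSMUSG00000053961, chromosome 14, 44194526 to 44200529), annotated in the deposited table as an unprocessed pseudogene, had 2 counts in replicate 3 of the male *Ptk6*-/- controls and 0 in the other 23 libraries. It did not pass the low count filter and was not tested, and 3 counts or fewer cannot be distinguished from 0. The positions are those of the deposited table, which the submitters' processing notes place on GRCm39.

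The list holds 3 pairs of near copies, 2 of them with 1 copy called higher in the average over succinate described below. In these 2, *Mptx2* was tested and not called, and *Ang5* was not tested. Their upstream sequences are shown to compare the copies. They are the 250 bases before the start of the gene in RefSeq on GRCm38.p6, read 5′ to 3′ along the gene's strand. Capitals mark bases without an identical partner in the alignment to the other copy. *Mptx1* lies at chr1:174330268-174330517, plus strand, *Mptx2* at chr1:173277757-173278006, minus strand, *Ang4* at chr14:51773591-51773840, minus strand, and *Ang5* at chr14:43956819-43957068, plus strand.
Mptx1: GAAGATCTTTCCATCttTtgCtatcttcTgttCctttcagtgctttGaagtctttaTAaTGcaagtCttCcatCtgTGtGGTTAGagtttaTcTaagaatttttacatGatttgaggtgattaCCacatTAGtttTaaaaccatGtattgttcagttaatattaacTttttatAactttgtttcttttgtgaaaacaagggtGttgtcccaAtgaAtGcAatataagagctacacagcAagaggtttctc
Mptx2: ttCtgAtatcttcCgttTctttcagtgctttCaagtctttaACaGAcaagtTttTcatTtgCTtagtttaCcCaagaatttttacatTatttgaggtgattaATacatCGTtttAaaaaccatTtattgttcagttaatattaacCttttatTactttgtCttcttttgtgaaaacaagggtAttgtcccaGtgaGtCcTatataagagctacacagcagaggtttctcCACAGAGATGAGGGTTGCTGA
Ang4: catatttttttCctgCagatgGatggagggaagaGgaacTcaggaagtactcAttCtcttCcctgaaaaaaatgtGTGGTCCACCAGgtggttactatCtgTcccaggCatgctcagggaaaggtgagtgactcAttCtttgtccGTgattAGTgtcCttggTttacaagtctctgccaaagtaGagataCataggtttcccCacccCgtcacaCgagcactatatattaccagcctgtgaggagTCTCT
Ang5: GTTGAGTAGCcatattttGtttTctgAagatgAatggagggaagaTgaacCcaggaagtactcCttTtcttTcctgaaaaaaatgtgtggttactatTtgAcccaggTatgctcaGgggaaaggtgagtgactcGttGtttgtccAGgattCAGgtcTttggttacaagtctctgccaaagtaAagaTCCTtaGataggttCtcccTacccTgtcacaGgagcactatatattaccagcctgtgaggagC

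The upstream windows were 86.4% identical over 228 paired bases for *Mptx1* and *Mptx2*, and 89.3% identical over 233 paired bases for *Ang4* and *Ang5*. Those of *Lyz1* and *Lyz2*, not printed, were 80.6% identical over 248 paired bases. The transcripts in GENCODE's annotation of GRCm38 were 92.4% identical for the *Mptx* pair, 90.2% for the *Ang* pair and 96.0% for the *Lyz* pair, with longest identical runs of 112, 79 and 118 bases. That annotation, unlike the deposited table, gives the *Ang5* transcript used here as protein coding. Of the 100-base stretches of *Mptx1*, 3.3% also occur in *Mptx2*, and of those of *Lyz1*, 2.1% occur in *Lyz2*, so that some reads could fit both copies of a pair. How the counting treated such reads is not given in the sources used here.

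Short motifs were searched on both strands of these windows in the 9 members with a RefSeq entry (no entry was matched for *Clps*). The STAT6 form, TTC and GAA with 4 bases between them, was in 0 of the 9 and in 5.86% of all 27025 windows, and TTCNNNGAA was in *Ang4* and *Nupr1* against 7.18% of all. The TCF letters CTTTGAA were in *Mptx1* (4.64% of all windows) and CTTTGAT in none (3.23%), while the E-box CAGCTG was in *Nupr1* (12.77%). TATAAA was in *Mptx1* and *Mmp7* (12.97%), and TATATA in *Ang4*, *Ang5*, *Mptx2* and *Itln1* (5.56%).

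Total counts per library were 8080321 to 52824743 (median 43017686.5), and the 10 genes took 0.4377% to 2.735% of them. *Ptk6* had 284 to 2405 counts in the wild type and 7 to 61 in the *Ptk6*-/- libraries. The 18S ribosomal RNA gene took 51.22% of the counts in replicate 1 of the male wild type controls and 29.71% in replicate 1 of the male *Ptk6*-/- succinate group, the shallowest library, against at most 4.486% elsewhere. In replicate 2 of the female wild type succinate group Y-linked genes went against the label, with 2291 counts. The other 11 female libraries held 0 to 42. *Xist* went with the female label, at 2438 counts, against 4 to 94 in the males and 3544 to 8654 in the other females. Heart muscle genes of this library summed to 23450 CPM (counts scaled to a common library size after TMM normalization), against 17.44 to 251.7 in the other libraries. Values without 1 or all of these 3 libraries are given beside the results on *Mptx1*, *Ang4*, *Clps* and the lysozymes.

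Averaged over the 4 combinations of sex and genotype, *Mptx1*, *Clps* and *Ang4* rose with succinate, while neither lysozyme gene did. This comparison used all 24 libraries and asked how succinate changed the mean of those 4 log2 fold changes, which need not be alike. *Mptx1* rose by a log2 fold change of 3.62 (standard error, SE, 0.42, adjusted p = 5.41e-05, edgeR), *Clps* by 2.06 (0.44, adjusted p = 0.0239) and *Ang4* by 1.75 (0.31, adjusted p = 0.00451). Calls required a change of at least 2-fold and an adjusted p (Benjamini-Hochberg, over all genes tested) under 0.05. Thus 3 of the 9 members tested were called, all higher, against 0.728% of the 21694 genes tested (0.627% called higher). Because the members were chosen with earlier results of these data known, such shares are descriptive and no test of the list. DESeq2 also called 3 (1.92% of all genes), and limma on log2(FPKM + 1) called 2 (0.433%). Without the 3 libraries that stand apart, chosen after seeing the data, *Mptx1* (log2 fold change 3.57) and *Ang4* (1.77) were called and *Clps* was not (1.87, adjusted p = 0.111, edgeR), with 0.423% of all genes called. The call of *Clps* also held in only 17 of 24 fits without 1 library, and was lost on FPKM and with a replicate block.

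The other 6 members tested did not pass, with log2 fold changes in the average of 0.90 for *Mptx2* (SE 0.30, edgeR adjusted p = 0.161), 0.65 for *Itln1*, 0.36 for *Nupr1* and 0.34 for *Mmp7*. The lysozymes had negative values, -0.38 for *Lyz1* and -0.56 for *Lyz2* (SE 0.17, edgeR adjusted p = 0.132). An unadjusted p under 0.05 was found for 6 of the 9 members, against 16.1% of all genes. The median log2 fold change was 0.65 over the 9 members and 0.00 over all genes tested.

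**Figure D1:**
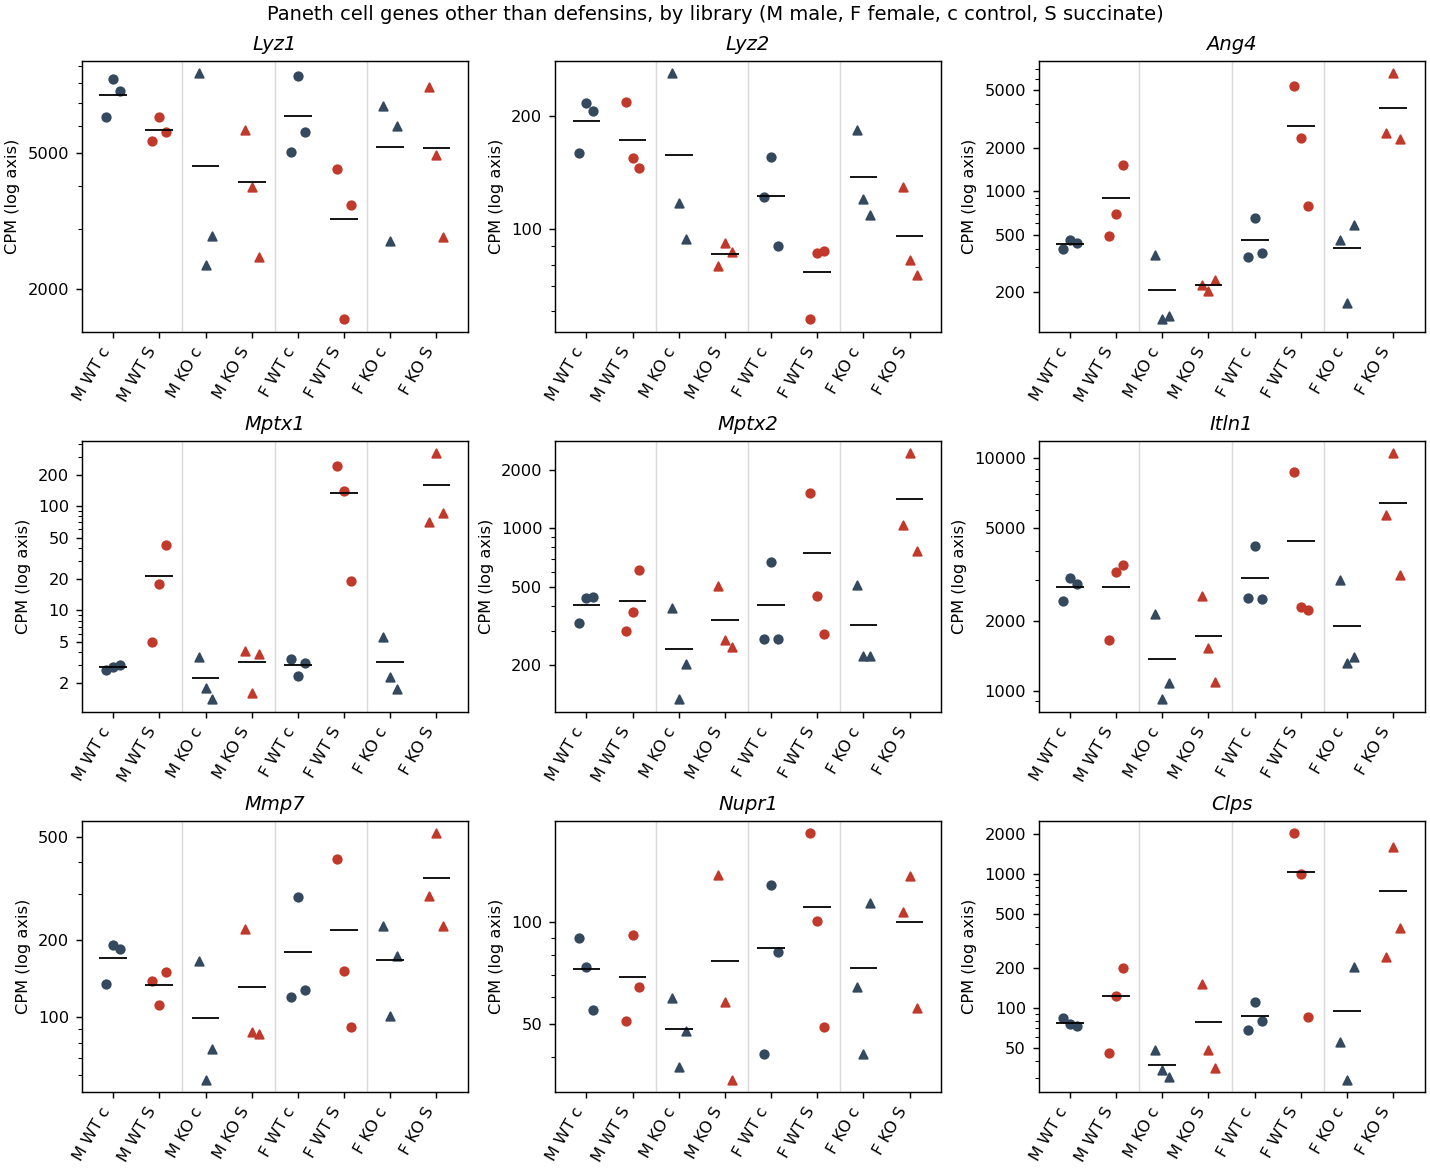
TMM-normalized counts (CPM, log axis) of the 9 genes tested, by group (M male, F female, WT wild type, KO Ptk6-/-, c control, S succinate). Each point is 1 library, circles wild type and triangles Ptk6-/-, dark blue control and red succinate, and the line is the group mean. The 3 points of Mptx1 in the female Ptk6-/- succinate group lie between 70.51 and 322.5 CPM, above all 12 control libraries.

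The pentraxin *Mptx1* had the largest log2 fold change of the 9 in the average, though not in *Ptk6*-/- males. In male wild type controls it was at 2.668, 2.831 and 3.017 CPM (normalized by TMM), and in male wild type mice given succinate at 4.921, 17.89 and 42.14 CPM. Female wild type mice had 3.436, 2.332 and 3.113 CPM as controls and 246.5, 139.6 and 19.0 CPM with succinate. Female *Ptk6*-/- mice had 5.549, 2.315 and 1.761 CPM as controls and 70.51, 322.5 and 85.48 CPM with succinate. The succinate libraries lay above the control libraries without overlap in these 3 settings. In male *Ptk6*-/- mice the controls had 3.594, 1.811 and 1.394 CPM and the succinate group 4.113, 1.593 and 3.791 CPM, which overlapped.

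The log2 fold changes of *Mptx1* were 2.93 (SE 0.69) in wild type males, 0.46 (0.56) in *Ptk6*-/- males, 5.54 (0.89) in wild type females and 5.60 (0.82) in *Ptk6*-/- females. None passed in these comparisons of 3 mice with 3, where edgeR's adjusted p was 0.947, 0.775, 0.213 and 0.102. DESeq2 gave *Mptx1* an adjusted p of 0.00231 in wild type males, 5.95e-12 in wild type females and 3.98e-14 in *Ptk6*-/- females. Without replicate 2 of the female wild type succinate group the value in wild type females was 5.53, with an edgeR adjusted p of 0.452. Without the libraries rich in 18S RNA it was 2.90 in wild type males and 0.21 in *Ptk6*-/- males. Leaving out each library in turn gave 1.98 (without succinate replicate 3) to 3.37 in wild type males and 0.21 to 1.01 (without control replicate 1) in *Ptk6*-/- males. It gave 4.75 (without succinate replicate 1) to 6.07 in wild type females and 4.57 (without succinate replicate 2) to 6.27 (without control replicate 1) in *Ptk6*-/- females.

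*Ang4* was at 396.3, 462.8 and 434.5 CPM in male wild type controls and at 492.7, 695.1 and 1520 CPM after succinate. In wild type females it was at 348.1, 655.3 and 372.3 CPM in controls and 5325, 2335 and 790.5 CPM after succinate, and in *Ptk6*-/- females at 457.9, 167.6 and 585.4 against 2527, 6543 and 2296 CPM. All succinate libraries of these 3 settings lay above their controls. In *Ptk6*-/- males the controls had 359.5, 129.5 and 136.8 CPM and the succinate libraries 224.3, 202.5 and 243.2 CPM, within the range of the controls. The log2 fold changes of *Ang4* were 1.06 (SE 0.42) in wild type males, 0.12 (0.43) in *Ptk6*-/- males, 2.64 (0.71) in wild type females and 3.20 (0.66) in *Ptk6*-/- females. The edgeR adjusted p was 0.947, 0.926, 0.550 and 0.247 in this order, and the DESeq2 adjusted p was 0.526, 0.927, 0.00242 and 7.23e-06. Without the libraries that stand apart the values of *Ang4* were 1.03 in wild type males, 0.05 in *Ptk6*-/- males and 2.77 in wild type females. Leaving out each library in turn gave *Ang4* 0.44 (without succinate replicate 3) to 1.33 in wild type males and -0.13 to 0.81 (without control replicate 1) in *Ptk6*-/- males. In females the range was 1.77 (without succinate replicate 1) to 3.10 in wild type and 2.55 (without succinate replicate 2) to 3.57 in *Ptk6*-/- mice.

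*Clps* overlapped its controls in 3 of the 4 settings. Wild type females had 68.54, 110.8 and 79.21 CPM as controls and 2013, 1002 and 84.86 CPM with succinate, where the third library overlapped the controls. *Ptk6*-/- females had 55.09, 29.03 and 201.2 CPM as controls and 238.9, 1591 and 394.4 CPM with succinate, without overlap. Wild type males went from 83.68, 75.52 and 73.07 CPM to 45.71, 122.3 and 198.4 CPM, and *Ptk6*-/- males from 47.9, 34.38 and 30.16 CPM to 150.2, 48.68 and 35.14 CPM, and both pairs overlapped. The high value in *Ptk6*-/- males is that of the shallow library rich in 18S RNA: the log2 fold change there was 1.13 with it and 0.13 without it. Without the other libraries that stand apart *Clps* was at 0.74 in wild type males (0.65 with all libraries) and 3.64 in wild type females (3.61). Leaving out each library in turn gave 0.089 (without succinate replicate 3) to 1.01 in wild type males and 2.66 (without succinate replicate 1) to 4.17 in wild type females. In *Ptk6*-/- females, at 2.94 with all libraries, it gave 1.71 (without succinate replicate 2) to 4.11 (without control replicate 3).

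**Figure D2:**
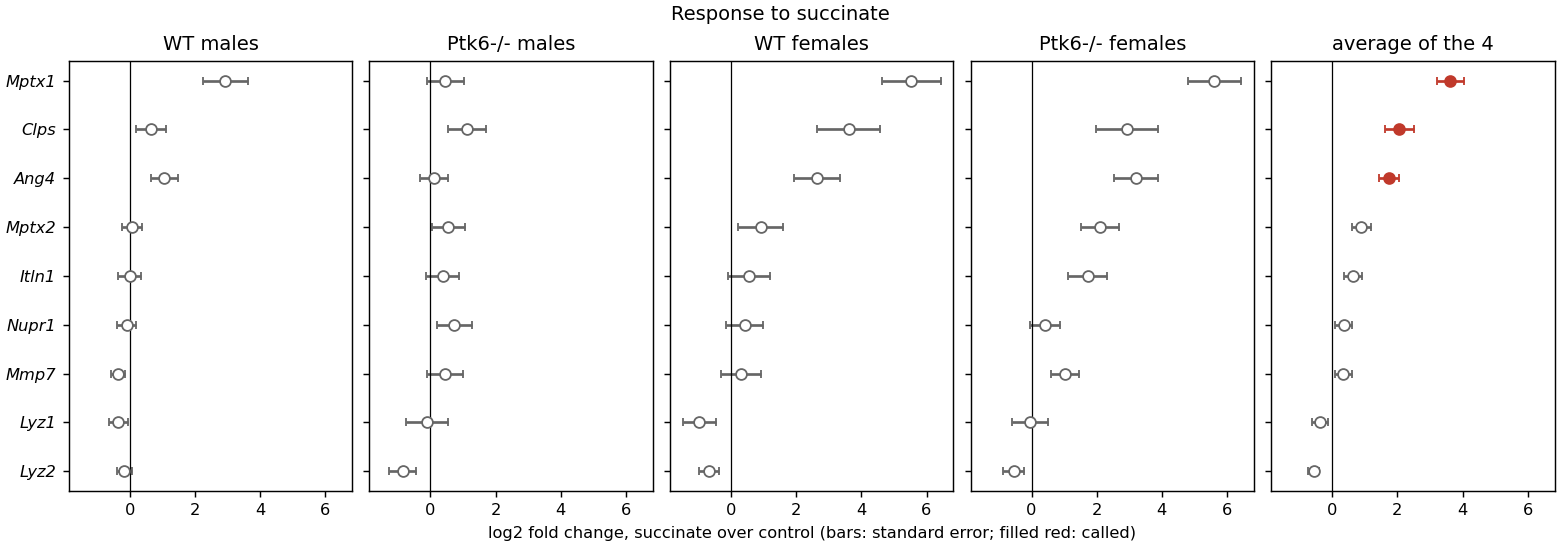
Log2 fold change of succinate over control for the 9 genes tested, in the 4 combinations of sex and genotype and in their average. Points are edgeR estimates, bars 1 standard error, and filled red points were called. Mptx1 runs from 0.46 in Ptk6-/- males to 5.60 in Ptk6-/- females, and the called genes of the average are Mptx1, Clps and Ang4.

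Of the others, *Mptx2* and *Itln1* showed values apart from the controls in *Ptk6*-/- females. *Mptx2* was at 512.8, 222.7 and 221.0 CPM in the controls and 1037, 2423 and 762.9 CPM with succinate, a change of 2.11 on the log2 scale (SE 0.58, edgeR adjusted p = 0.348). *Itln1* was at 2988, 1319 and 1395 CPM in the controls and 5684, 10460 and 3143 CPM with succinate, a change of 1.73 on the log2 scale (0.59, edgeR adjusted p = 0.418). Neither gene overlapped between these groups. Neither was called by edgeR or limma, and DESeq2 called both (adjusted p = 0.00846 for *Mptx2* and 0.0453 for *Itln1*). Without 1 library *Mptx2* was at 1.46 to 2.64 and *Itln1* at 1.18 to 2.22, both lowest without succinate replicate 2. In wild type females *Lyz1* was at 5032, 8423 and 5743 CPM in controls and 4488, 1629 and 3511 CPM with succinate, without overlap and lower, a change of -0.97 on the log2 scale (0.50, edgeR adjusted p = 0.683). The lowest of these is the library with heart and Y-linked transcripts, and without it the value was -0.65. *Lyz2* was at 121.5, 155.7 and 89.9 CPM in these controls and 57.11, 85.83 and 87.0 CPM with succinate, again without overlap (-0.66, adjusted p = 0.652, edgeR, and -0.74 without that library). In *Ptk6*-/- males *Lyz2* was at 260.4, 116.8 and 93.69 CPM in controls and 79.24, 91.38 and 86.42 CPM with succinate, the 1 member without overlap there (-0.85, adjusted p = 0.600, edgeR, and -0.86 without the library rich in 18S RNA). Leaving out each library in turn gave it -1.13 to -0.24, the smallest change without control replicate 1.

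In the comparisons of 3 mice with 3, edgeR called 0 of the 9 members in each of the 4. Among all genes it called 0%, 0%, 0% and 0.0879% in wild type males, *Ptk6*-/- males, wild type females and *Ptk6*-/- females. Members with an unadjusted p under 0.05 numbered 2, 0, 3 and 6, against 4.07%, 7.75%, 7.77% and 10.7% of all genes. Members whose groups did not overlap numbered 2, 1, 4 and 5, against 8.77%, 23%, 13.3% and 21.2% of all genes. DESeq2 called 1, 0, 3 and 5 members, against 0.246%, 0.206%, 1.38% and 2.26% of all genes. With limma on log2(FPKM + 1) 0, 0, 0 and 1 were called, against 0.00722%, 0%, 0.00712% and 0.168%. Single libraries decided 2 of these counts, since 3 members (*Mptx1*, *Ang4* and *Clps*) were called in wild type males without succinate replicate 1 and in wild type females without succinate replicate 3. Among all genes the share called rose too in those fits, from 0% to 5.8% (1077 genes) and to 3.23% (597 genes).

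Whether the response differed between genotypes was tested as an interaction in each sex, and whether it differed between sexes within *Ptk6*-/- mice only. No member was called by edgeR in any of these tests, where 0% of all genes were called. In males *Mptx1* responded less in *Ptk6*-/- than in wild type mice by a log2 difference of -2.48 (SE 0.92, unadjusted p = 0.0193, edgeR adjusted p = 0.993), the 1 member with an unadjusted p under 0.05 (3.8% of all genes). DESeq2 and limma called 0 members there (0.381% and 0% of all genes). Without the libraries rich in 18S RNA, left out 1 at a time, the difference was -2.48 and -2.71, and without wild type succinate replicate 3 it was -1.51. In females the genotype difference of *Mptx1* was 0.07 (1.11) and that of *Ang4* 0.59 (0.95), with 0 members under an unadjusted p of 0.05 (6.46% of all genes) and 0 called by DESeq2 or limma (0.312% and 0% of all genes). Without replicate 2 of the female wild type succinate group the differences were 0.079 and 0.45. Within *Ptk6*-/- mice the response was larger in females than in males by 5.17 on the log2 scale for *Mptx1* (0.97, unadjusted p = 0.000152, edgeR adjusted p = 0.222) and by 3.10 for *Ang4* (0.81, unadjusted p = 0.00219, edgeR adjusted p = 0.403). These were the 2 members with an unadjusted p under 0.05 (7.12% of all genes). DESeq2 called both, with adjusted p values of 4.85e-05 and 0.0138, and limma on log2(FPKM + 1) called *Mptx1* (0.903% and 0.071% of all genes). Without the library rich in 18S RNA the differences were 5.37 and 3.14 (edgeR adjusted p 0.236 and 0.481). *Mptx1* was at 4.15 without succinate replicate 2 of the *Ptk6*-/- females, and *Ang4* at 2.41 without control replicate 1 of the *Ptk6*-/- males.

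The copies of a pair were compared by their ratio. The log2 ratio of *Mptx1* to *Mptx2* was -6.87 ± 0.54 (SD, n = 12) in control and -4.39 ± 1.79 (SD, n = 12) in succinate libraries. The difference of 2.48 had a two-sided p of 0.000213 by exact permutation of the treatment within sex and genotype, over 160000 arrangements. It was 2.42 in wild type males, -0.08 in *Ptk6*-/- males, 4.23 in wild type females and 3.37 in *Ptk6*-/- females. The log2 ratio of *Lyz1* to *Lyz2* differed by 0.16 (exact permutation p = 0.496). Without the 3 libraries that stand apart the differences were 2.40 for the *Mptx* pair (exact permutation p = 0.00045) and 0.21 for the *Lyz* pair (exact permutation p = 0.265). These 2 tests were chosen after the values were seen, and *Mptx1* kept less RNA than *Mptx2* in each group. Summed as 1 gene, the *Mptx* pair was at 1.01 on the log2 scale in the average (adjusted p = 0.122, edgeR).

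**Figure D3:**
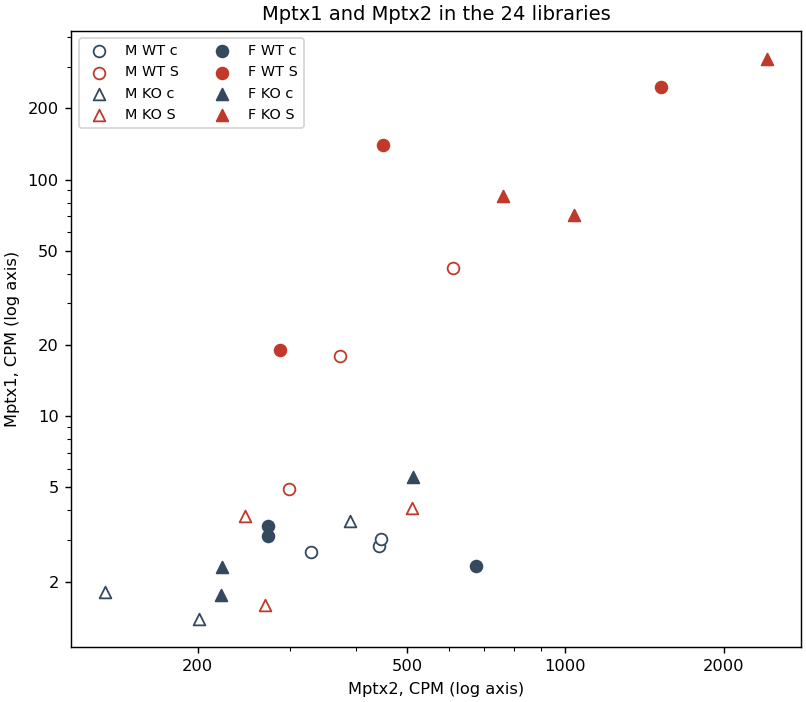
Mptx1 against Mptx2 in TMM-normalized counts (CPM, both log axes), 1 point per library. Open symbols are males, filled symbols females, circles wild type (WT), triangles Ptk6-/- (KO), dark blue control (c) and red succinate (S). Control libraries stay at or below 5.549 CPM of Mptx1 while Mptx2 ranges from 133 to 677 CPM.

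Without succinate, all 9 members tested had lower values in *Ptk6*-/- than in wild type males (48.7% of all genes did), and *Clps* passed the test. *Clps* fell by 1.07 on the log2 scale (SE 0.19, edgeR adjusted p = 0.0322), from 83.68, 75.52 and 73.07 to 47.9, 34.38 and 30.16 CPM without overlap. That is 1 of 9 members called, against 0.739% of the 19218 genes tested, or 0.224% called lower. *Ang4* and *Itln1* also had no overlap, at -1.06 (edgeR adjusted p = 0.126) and -1.03 (edgeR adjusted p = 0.0988) on the log2 scale. A total of 3 members had no overlap, against 31.3% of all genes, and 4 an unadjusted p under 0.05, against 25.2%. The median log2 fold change of the 9 was -0.76, with 0.02 over all genes.

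One *Ptk6*-/- mouse stood apart in this comparison. Replicate 1 of the male *Ptk6*-/- controls had 8544 CPM of *Lyz1*, against 2352 and 2865 in the others, and the highest level of the group for all 9 members. Without it 6 members were called lower (*Lyz1*, *Ang4*, *Mptx2*, *Itln1*, *Mmp7* and *Clps*), against 1.02% of all genes called (191). Summed over the crypt stem and cycling list this library had 966.2 CPM, the highest of all 24, against 515 and 516.8 in its group, and over the enterocyte list 22440 CPM against 32950 and 34980. The part of these cells was not tested. Without any 1 of the other 5 libraries 0 members were called, where 2 to 211 of all genes were, the highest number without wild type control replicate 1. Over the 6 fits without 1 library *Clps* had log2 fold changes of -1.29 to -0.93 (edgeR adjusted p 0.0188 to 0.123), the lower value without that mouse. Without the wild type library rich in 18S RNA *Clps* was at -0.96 (edgeR adjusted p = 0.0474), less than 2-fold. The call was also lost when the fit allowed for how each library's counts depend on gene length (-0.72, edgeR adjusted p = 0.119) and on FPKM (-0.64, limma adjusted p = 0.674). A replicate block ended it too, as did a fit of all libraries together. FPKM was used as deposited, and *Clps* had 47.59 in the wild type library rich in 18S RNA, against 98.48 and 93.51. In CPM *Clps* had 83.68 there, against 75.52 and 73.07. The part of this in the lost call was not tested. DESeq2 called 2 members (2.23% of all genes) and limma 0 (0.0143%).

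In control females edgeR called 0 members (0.0158% of all genes), with 0 at an unadjusted p under 0.05 (11.1% of all genes), 0 without overlap (18.9%) and a median of -0.16. DESeq2 and limma on log2(FPKM + 1) also called 0 (1.72% and 0.0216% of all genes). Without *Ptk6*-/- control replicate 3 edgeR called 1808 of all genes and still 0 members. The median of the members ran from -0.37 to 0.28 without 1 library, above 0 without wild type control replicate 2 (0.28) or *Ptk6*-/- control replicate 2 (0.18). The female log2 fold changes ran from -0.64 for *Itln1* to 0.20 for *Lyz2*. Whether the genotype effect differed between the sexes was not tested here.

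**Figure D4:**
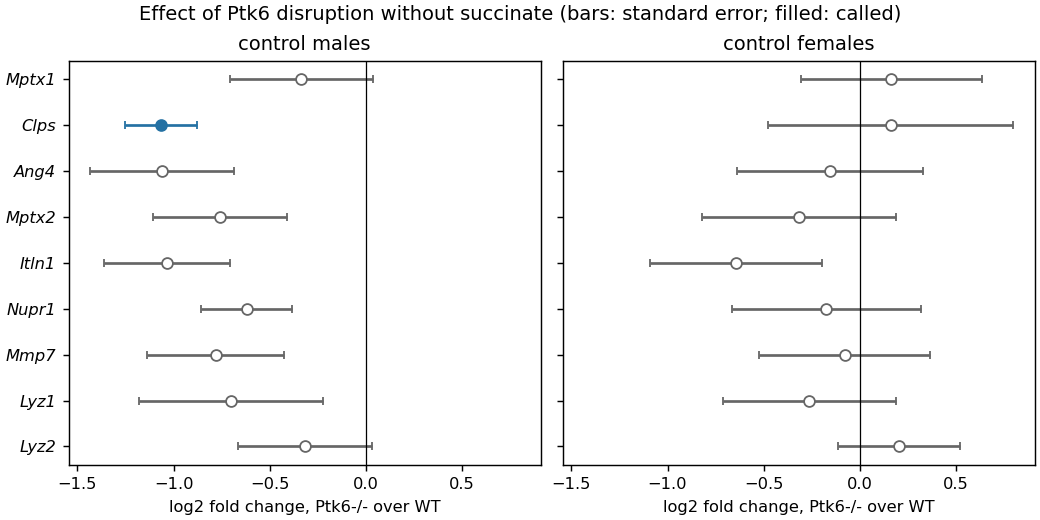
Log2 fold change of Ptk6-/- over wild type (WT) in control males and control females for the 9 genes tested. Points are edgeR estimates, bars 1 standard error, and the filled point, Clps in males, was called. All 9 points of the males lie below 0, with a median of -0.76, and the females have a median of -0.16.

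The order of groups differed between the genes. *Ang4*, *Mptx1*, *Mptx2*, *Itln1* and *Mmp7* had their highest mean CPM in female *Ptk6*-/- mice given succinate (3789, 159.5, 1408, 6429 and 344.6 CPM), and the lowest in male *Ptk6*-/- controls (208.6, 2.266, 241.2, 1373 and 99.3 CPM). *Clps* and *Nupr1* were highest in wild type females given succinate (1033 and 110.8 CPM). *Lyz1* and *Lyz2* had another order, highest in male wild type controls (7402 and 194 CPM) and lowest in female wild type mice given succinate (3209 and 76.65 CPM). Neighbours in these orders overlapped between libraries, except for *Clps* between female *Ptk6*-/- and male wild type mice given succinate, and between male wild type and male *Ptk6*-/- controls.

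The other Paneth cell lists did not hold calls in the average over succinate. Of all genes tested there 0.627% were called higher and 16.1% had an unadjusted p under 0.05, the shares to set beside every list in this average. Of 28 alpha-defensins tested 0 were called by edgeR (8 at an unadjusted p under 0.05), with a median log2 fold change of 0.12, and the 2 with the smallest p, *Defa31* and *Defa23*, had 1.23 and 1.19 (edgeR adjusted p 0.146 and 0.147). Their median differed by setting, at 0.14 in wild type males, 1.21 in *Ptk6*-/- males, -0.89 in wild type females and 0.18 in *Ptk6*-/- females, with 0 called in each. In *Ptk6*-/- males the shallow succinate library rich in 18S RNA had 91720 CPM summed over the alpha-defensins. The other succinate libraries there had 29410 and 16710 CPM, and the controls 15980 to 28770 CPM. Of 21 regulators and niche factors 0 were called (3 at an unadjusted p under 0.05), with a median of -0.09. *Cd24a*, a surface protein of Paneth cells, had 0.77 (edgeR adjusted p = 0.0247), under 2-fold, and *Spdef* had 0.54 (edgeR adjusted p = 0.154). In *Ptk6*-/- females these 21 genes summed to 1138 to 1438 CPM with succinate and 826.7 to 935.8 CPM in controls. Their median log2 fold change there was 0.255, with 12 of the 21 above 0 and 0 called (0.0879% of all genes). An unadjusted p under 0.05 was found for 4 of them, against 10.7% of all genes. In control males 6 of 27 alpha-defensins were called lower in *Ptk6*-/- mice, with 26 at an unadjusted p under 0.05 and a median of -1.05, beside the -0.76 of the 9 genes here. Of all genes 0.224% were called lower and 25.2% had such a p. The goblet cell list had negative values in 12 of 15 genes in that comparison, with a median of -0.56, 0 called lower, 1 called higher and 11 at an unadjusted p under 0.05 (edgeR).

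Many tuft cell and type 2 response genes also passed in the average over succinate, where 0.627% of all genes were called higher and 16.1% had an unadjusted p under 0.05. There 16 of 25 tuft cell genes were called higher, among them *Avil* at 1.67 and *Trpm5* at 1.56, and the list's median was 1.67. Of 20 type 2 response genes tested 10 were called higher, such as the phospholipase gene *Pla2g4c* at 5.80 and the gasdermin gene *Gsdmc4* at 2.55. The goblet cell list had 3 of 16 called higher, with *Retnlb* at 6.47 and *Reg4* at 3.09 having the smallest p. These lists too were chosen with earlier results of these data known, so that their shares are no test of them. Summed tuft cell CPM was 326.2 to 706.1 in female *Ptk6*-/- and 77.04 to 153.6 in male *Ptk6*-/- mice given succinate. Of 12 enterocyte genes 0 were called in the average by edgeR (8 at an unadjusted p under 0.05), and the median was -0.42, with *Rbp2* at 1.10 and *Vil1* at -0.65 having the smallest p. Summed enterocyte CPM was 19990 to 23230 in female *Ptk6*-/- mice given succinate and 23010 to 57740 in their controls. The part of these cells in the levels of the 9 genes was not tested.

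**Figure D5:**
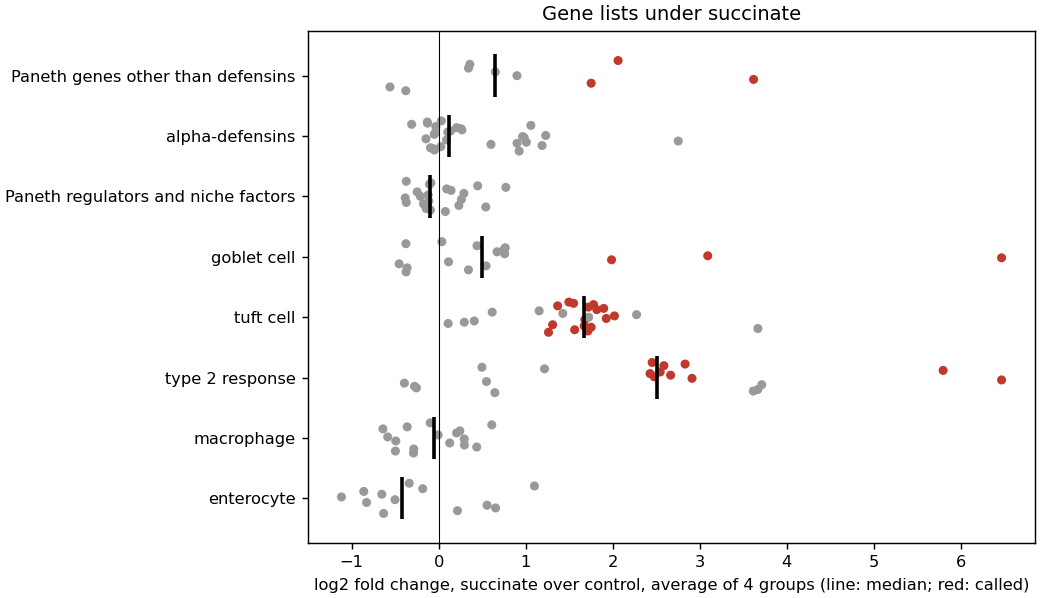
Log2 fold change of succinate over control in the average of the 4 combinations of sex and genotype, for the Paneth genes other than defensins and 7 other lists. Each point is 1 gene tested, red points were called, and the black line is the list's median. The median is 0.65 for the 9 Paneth genes, 0.12 for alpha-defensins and 1.67 for tuft cell genes.

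Some members are made by other cells too. Of 16 macrophage genes 0 were called by edgeR in the average (4 at an unadjusted p under 0.05), their median was -0.05 with 7 of the 16 above 0 (range -0.64 to 0.61), and *Cd14* and *Cd68*, the 2 with the smallest p, had -0.49 and -0.50 beside the -0.56 of *Lyz2*, and their summed CPM ranged from 310.7 to 1209 over the libraries. *Clps* and the related lipase genes are best known from the exocrine pancreas. *Pnliprp1* and *Pnliprp2*, pancreatic lipase-related proteins, rose with succinate by 3.07 (SE 0.60, edgeR adjusted p = 0.0111) and 2.15 (0.37, edgeR adjusted p = 0.00392), so that 2 of 2 lipase partners tested were called. Of the 20 genes of the pancreas list 12 have a named row, and 8 of these, among them *Prss2*, *Cpa1*, *Cel* and *Ctrb1*, stayed at or under 64 counts in every library, where *Clps* reached 87075. The list's summed CPM, which *Zg16* of goblet cells leads, was 849.8 to 8696. Relatives of the members did not pass in the average by edgeR, with 0 of 4 angiogenin relatives (1 at an unadjusted p under 0.05, *Rnase1* at 0.76 and *Rnase4* at -0.29) and 0 of 4 other pentraxins (2 at an unadjusted p under 0.05, *Ptx3* at 1.02 and *Nptx2* at 0.60) called. Of 10 crypt stem and cycling genes 0 were called by edgeR (2 at an unadjusted p under 0.05), with a median of -0.08, 4 of the 10 above 0, and *Lgr5* at -0.54 and *Axin2* at -0.64. Among the lists used to check libraries, 1 of 11 heart muscle genes tested was called in the average, and all 11 were above 0. This was *Actc1* at 3.62 (edgeR adjusted p = 0.00843), and *Tnnt2* was at 2.16. *Ddx3y* and *Eif2s3y* were at 3.16 and 2.57 and *Xist* at 0.53, with 0 called. The average includes the library with heart and Y-linked transcripts.

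For each called gene, the genes with the most similar pattern were found as the smallest root mean square difference in centred log2 CPM over the 24 libraries, among 17075 genes. Nearest to *Ang4* (SD 1.545) were *Alox5ap* (0.508), *Fam221a* (0.609) and *Pnliprp2* (0.610). Nearest to *Mptx1* (SD 2.424) were *Cabp5* (0.615), *Reg4* (0.719) and *Gsdmc2* (0.834). *Cabp5* had 0 counts in the controls and at most 59 in any library. Nearest to *Clps* (SD 1.69) were *Defa-ps6* (0.426), *Pmm1* (0.434) and *Spink4* (0.530).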

How the data were processed

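The 24 libraries were grouped by sex, genotype and treatment from their labels. According to the paper's methods the authors made stranded poly(A) libraries and estimated expression with StringTie and ballgown. The authors deposited raw read counts per gene and FPKM values, and the submitters' processing notes name FastQC, StringTie and GRCm39. The program that counted reads is not given in the sources used here. Raw reads were not analysed.

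Counts were compared in R 4.3.3 with edgeR 4.0.16 (quasi-likelihood test, TMM normalization). A gene entered a fit when 3 or more of its libraries held 10 or more counts, and p-values were adjusted over all such genes. CPM was TMM-normalized over all 24 libraries. Alternatives were DESeq2 1.42.0, its size factors used in edgeR, the low count filter dropped, limma 3.58.1 on log2(FPKM + 1) where mean FPKM reached 0.5, a replicate block, a gene length offset (with and without that block), all libraries in 1 fit, near copies summed, and each library left out in turn. The 10 members were named always, and from each list the 2 genes with the smallest p in the average. The nearest genes were ranked without Gm and Rik symbols. The members and lists were chosen with earlier results of these data known. On simulated data with 200 changed genes, edgeR recovered 42% at a log2 change of 2 and 96% at 4 for succinate in *Ptk6*-/- females, 12% and 75% for sex by succinate in *Ptk6*-/- mice, 87% and 99% for genotype in control males, and 95% and 100% for the average. Total counts of 8080321 to 52824743 limit precision, and counting error does not include differences between mice. Sequences were read with Biopython 1.88.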

Additional observations from a re-analysis of the deposited data

How the results depend on the processing

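In the average over succinate 2 or 3 members were called in every alternative. *Mptx1* was called in each of the 24 fits without 1 library (log2 fold change 3.36 to 3.78), and *Ang4* also (1.54 to 1.92). *Clps* kept its call in 17 of 24 (1.77 to 2.35, edgeR adjusted p 0.00186 to 0.0583). It lost it without replicates 2 or 3 of the male wild type or male *Ptk6*-/- controls, or without succinate replicate 3 of male wild type, 1 of female wild type or 2 of female *Ptk6*-/- mice, and on FPKM (1.69, limma adjusted p = 0.0719). All genes called numbered 88 to 539 without 1 library, 390 with DESeq2, 61 with limma and 91 without the 3 libraries that stand apart.

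The count of members called by edgeR moved from 0 to 1 in wild type males with DESeq2 (47 of all genes called), and to 3 (DESeq2, 258 genes) and 1 (all 24 libraries in 1 fit, 87 genes) in wild type females, where edgeR called 0 genes. In *Ptk6*-/- females it moved from 0, with 17 genes, to 5 (DESeq2, 436 genes), 1 (limma, 24) and 2 (1 fit, 132). For sex by succinate it moved from 0, with 0 genes, to 2 (DESeq2, 180 genes), 1 (no filter, 12) and 1 (limma, 10). In control males the 1 call, with 142 genes, became 2 with DESeq2 (311 genes) and 0 with limma (2), the length offset (44), the length offset with the replicate block (5), and 1 fit (1). The cause was not tested. Without 1 library the members called were 0 to 3 in wild type males, 0 to 3 in wild type females and 0 to 6 in control males.

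Same-numbered mice share only a number: in no comparison did every pair correlate over 0.1, and in *Ptk6*-/- females the pairs were at -0.321 to 0.033. With the replicate block *Clps* lost its call in control males (0 members called, edgeR adjusted p = 0.0539) and in the average (adjusted p = 0.0504), and 0 genes were called in *Ptk6*-/- females instead of 17. No other member's call changed with it.

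Some signs turned, none of them of a called value. In *Ptk6*-/- males limma gave -0.42 for *Ang4*, -0.14 for *Mptx1* and -0.13 for *Mptx2*, and the length offset -0.18 for *Ang4*. For genotype by succinate in males *Clps* was -0.70 (limma), -0.079 (length offset and replicate block) and -0.59 without the 3 libraries that stand apart, against 0.46 by edgeR. There the summed *Mptx* pair was at 0.42, against -2.48 for *Mptx1* alone. Most counts of the pair are those of *Mptx2* (0.48), so that the sum does not test the sign of *Mptx1*. For genotype by succinate in females *Mptx1* was -0.27 with the length offset. Without 1 library the sign also turned for *Mptx2* in wild type males (-0.29 to 0.25) and females (-0.14, without succinate replicate 1, to 1.5, against 0.91), and for *Ang4* in *Ptk6*-/- males (-0.13 to 0.81). It turned for genotype by succinate of *Clps* in males (-0.52 to 1.03), and of *Ang4* (-0.035 to 1.46) and *Mptx1* (-0.92 to 0.87) in females.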
